A study of Mus musculus with 2 samples.

Results

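The 7 leukocyte microRNA (miRNA) genes Mir142, Mir150, Mir155, Mir223, Mir146, Mir146b and Mir342 were followed in the heart of the young mouse, where they came from whole tissue and not from sorted cells. They were chosen by name, as miRNA genes known from blood leukocytes, and all 7 were found by their GENCODE M21 symbols among the 2202 listed miRNA genes, with Mir146 standing for miR-146a. The study sequenced small RNA of heart tissue, taken at an age of 25 days from B6CASTF1/J males, the F1 hybrid of C57BL/6J and CAST, with no treatment named. There is 1 group of 2 libraries, replicates 1 and 2, so values are given for each heart and as mean ± SD with n = 2. The labels give the hearts different animal numbers but 1 donor identifier, and if they are not separate animals the spread between them is technical. Levels are reads assigned to a gene on its own strand per 1000000 such reads (CPM), out of 4930853 assigned reads in replicate 1 and 5229819 in replicate 2. At 0 counts a gene could still reach 0.608 CPM (replicate 1) or 0.574 CPM (replicate 2), a limit of 3 counts that covers counting error only, as do all intervals below.

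A miRNA is cut from a hairpin transcript and guides silencing proteins to messenger RNAs that pair with its seed, bases 2 to 8 of the mature strand. Mir142 is known as a gene active throughout the blood cell lineages, Mir223 as a gene of myeloid cells such as neutrophils, and Mir150 as a gene of mature B and T lymphocytes. Mir155 and Mir146 are induced by inflammatory signalling through NF-kB, the former promoting immune activation and the latter restraining it by targeting adaptor proteins of Toll-like receptor signalling. Some of these genes, among them Mir155 and Mir146, are also made outside leukocytes, and in bulk tissue fewer cells of a type and less RNA per cell cannot be told apart.

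The mature sequences below are shown because the genes are told apart by them and because 1 pair shares a seed. They come from RefSeq on GRCm38.p6, which matched all 7 genes with 13 mature sequences, and capitals mark the seed. The sequence of miR-150-5p was missing from them, so Mir150 is covered by its 3p arm only.
mmu-miR-155-5p: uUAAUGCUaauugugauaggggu
mmu-miR-150-3p: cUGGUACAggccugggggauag
mmu-miR-342-3p: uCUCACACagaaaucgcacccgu
mmu-miR-146a-5p: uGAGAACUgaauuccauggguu
mmu-miR-146b-5p: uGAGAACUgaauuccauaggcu
mmu-miR-142a-5p: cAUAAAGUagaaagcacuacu
mmu-miR-142a-3p: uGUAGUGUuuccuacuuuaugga
mmu-miR-223-3p: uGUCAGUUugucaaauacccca
The 13 sequences held 12 distinct seeds, since miR-146a-5p and miR-146b-5p share GAGAACU. No other mature sequence among the 1738 in the table carried any of these 12 seeds. The seed of miR-150-5p is not among the 12, so whether another miRNA shares it was not analysed here. The members were 21 to 23 bases long, and RNA below 30 nucleotides was selected, so a read holds about 1 mature miRNA and levels were not divided by gene length. The counts join both arms of a hairpin, and the share of each arm was not analysed here.

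Mir155 was the most abundant of the 7 genes, with 13642 counts in replicate 1 and 14388 in replicate 2, or 2767 and 2751 CPM. The hearts were nearly equal for this gene, which ranked 35 and 41 among the 2202 genes in replicates 1 and 2. The gene is found at chromosome 16, 84714140 to 84714204, plus strand of mm10, in an exon of its noncoding host Mir155hg. Its level of 2759 ± 11.0 CPM (SD, n = 2) was close to that of the heart muscle gene Mir499, at 2933 and 2758 CPM. Mir499, carried by a myosin heavy chain gene, was also the detected gene with the pattern most like it, at a distance of 0.08 log2 CPM over the 2 libraries. Detected means at least 10 counts in both hearts, and 356 genes met this.

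Mir150 followed with 6984 and 10290 counts in replicates 1 and 2, or 1416 and 1968 CPM. Replicate 2 was the higher heart, and the mean was 1692 ± 390 CPM (SD, n = 2). Mir150, which represses the transcription factor Myb during lymphocyte development, is found at chromosome 7, 45121757 to 45121821, plus strand, outside other annotated genes. Its closest match in pattern was Mir676, at a distance of 0.08 log2 CPM.

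Mir342 had 4824 and 8700 counts, or 978 and 1664 CPM in replicates 1 and 2. Replicate 2 was again the higher heart, with a mean of 1321 ± 485 CPM (SD, n = 2). The gene is found at chromosome 12, 108658620 to 108658718, plus strand, in an intron of Evl, which encodes a regulator of the actin cytoskeleton. Mir181d, of a family known from lymphocyte development, was closest in pattern, at a distance of 0.23 log2 CPM.

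Mir146 had 3200 and 6893 counts, or 649 and 1318 CPM, and was the higher in replicate 2. Its mean was 983 ± 473 CPM (SD, n = 2), and its coefficient of variation of 48.1% was the widest of the 6 detected genes. Its hairpin is at chromosome 11, 43374397 to 43374461, minus strand, outside other annotated genes. Mir486, a gene also known from red cells, was closest in pattern at a distance of 0.24 log2 CPM. Reads placed at several loci are in no gene's count, and those of Mir486 were not analysed, so this match is uncertain.

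Mir146b, its paralogue with the same seed, had 3 counts in replicate 1 and 8 in replicate 2, or 0.608 and 1.53 CPM. It is the single member that was not detected. Its hairpin is at chromosome 19, 46342762 to 46342870, plus strand, in an intron of Mfsd13a. The ratio of replicate 2 to replicate 1 was 2.51 (exact 95% interval 0.603 to 14.7), so the hearts could not be told apart at this depth. Of the counts of the 2 paralogues, Mir146b gave 0.0937% in replicate 1 (exact 95% interval 0.0193 to 0.273%) and 0.116% in replicate 2 (0.0501 to 0.228%). The arms are joined in these counts, so they are counts of the genes and not of the shared seed. The pair is shown again with capitals marking the bases that differ.
mmu-miR-146a-5p: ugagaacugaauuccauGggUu
mmu-miR-146b-5p: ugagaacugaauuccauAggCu
The differences are G18A and U21C, counted from 1 at the 5′ end with the base of miR-146a-5p first, and the 2 sequences share a run of 17 bases. The hairpins of Mir146 and Mir146b share a run of 21 bases, and reads placed at several loci, 41.6% and 37.4% of all reads in replicates 1 and 2, are in no gene's count. How many of those reads belong to this pair was not analysed here, so both counts are uncertain.

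Mir142 had 2478 counts in replicate 1 and 1418 in replicate 2, or 503 and 271 CPM. Unlike Mir150, Mir342 and Mir146, it was the higher in replicate 1, and its mean was 387 ± 164 CPM (SD, n = 2). Its hairpin is at chromosome 11, 87756864 to 87756927, plus strand, in an intron of the noncoding host Mir142hg. Mirlet7a-2 was closest in pattern, at a distance of 0.53 log2 CPM, farther than for any other detected member. Mirlet7a-2 gives the same main mature strand as Mirlet7a-1, so its count, and with it this match, is uncertain.

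Mir142 was also the member whose count depended on the strand. The gene Mir142b (87756841 to 87756955) lies over it on the minus strand, and its mature sequence is shown with the seed in capitals.
mmu-miR-142b: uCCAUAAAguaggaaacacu
The 20 bases of miR-142b are the reverse complement of 20 of the 23 bases of miR-142a-3p. Counted without strand, Mir142 was listed at 0 in both hearts, a loss of 100% of its counts, because a read over both genes is tallied as ambiguous. The counts of Mir142 equal 0.185% and 0.0986% of the ambiguous reads in replicates 1 and 2. The other 6 members had the same counts with and without strand. Mir142b had 0 counts on its own strand in both hearts.

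Mir223 had 503 and 712 counts, or 102 and 136 CPM in replicates 1 and 2. It was the higher in replicate 2, with a mean of 119 ± 24.1 CPM (SD, n = 2), and was the lowest of the 6 detected members. Its hairpin is at chromosome X, 96242817 to 96242926, plus strand, in an exon of the noncoding gene F630028O10Rik. Mir181a-2 was closest in pattern, at a distance of 0.08 log2 CPM, but it shares its main mature strand with Mir181a-1, so its count is uncertain.

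**Figure D1:**
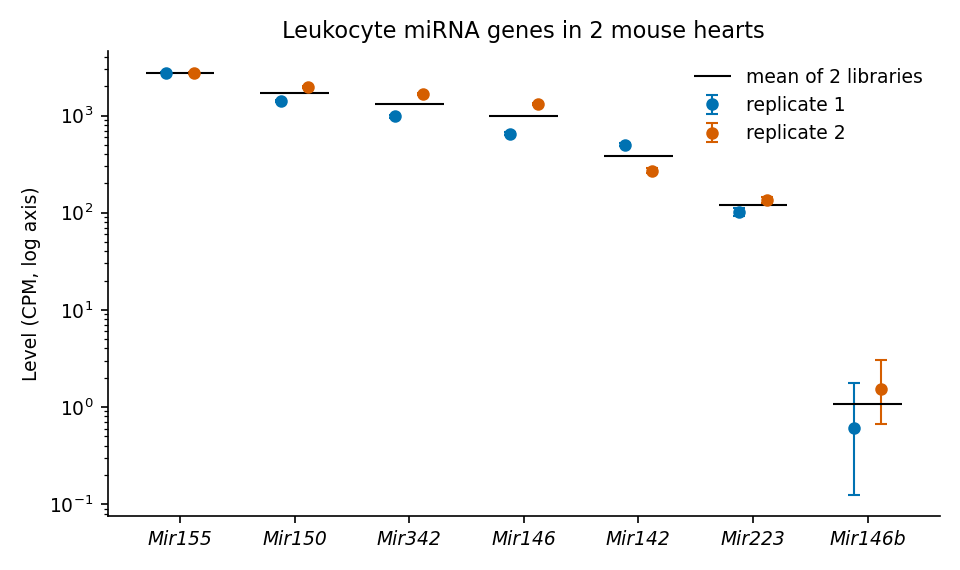
Level of each leukocyte miRNA gene in CPM (log axis) in the 2 hearts, with points for libraries, bars for exact 95% counting intervals and a line at the mean of the libraries. Mir155 sits at 2767 and 2751 CPM, Mir142 is higher in replicate 1, at 503 against 271 CPM, and Mir146b lies near 1 CPM.

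By mean level the order was Mir155, Mir150, Mir342, Mir146, Mir142, Mir223 and Mir146b. The values of Mir150 and Mir342 overlapped between hearts, as did those of Mir342 and Mir146, so levels taken from different hearts did not separate these neighbours. The other neighbouring pairs did not overlap. Within each heart the order of the 6 detected members was the same, and in all 15 of their 15 pairs the gene with more counts had an exact 95% interval of the ratio above 1 in both hearts. The median of the 7 mean levels was 983 CPM, against 60.3 CPM over the 356 detected genes, a description only because the 7 genes were chosen as known genes.

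Together the 7 genes held 31634 counts in replicate 1 and 42409 in replicate 2. This was 0.642% of assigned counts (exact Clopper-Pearson 95% interval 0.635 to 0.649%) and 0.811% (0.803 to 0.819%), or 0.726 ± 0.120% (SD, n = 2). Mir142, Mir150 and Mir223, the genes tied most closely to blood lineages, were all detected, and since no cells were sorted, the cells that held the RNA were not measured. The summed level was 1.26-fold higher in replicate 2 (exact 95% interval 1.25 to 1.28), a difference between 2 libraries for which no test between conditions exists.

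The makeup of these counts differed between the hearts. Mir155 gave 43.1% of them in replicate 1 (exact 95% interval 42.6 to 43.7%) and 33.9% in replicate 2 (33.5 to 34.4%). Mir142 gave 7.83% (7.54 to 8.13%) and 3.34% (3.17 to 3.52%). Mir146 gave 10.1% (9.79 to 10.5%) and 16.3% (15.9 to 16.6%), and Mir342 gave 15.2% (14.9 to 15.7%) and 20.5% (20.1 to 20.9%). Mir150 gave 22.1% (21.6 to 22.5%) and 24.3% (23.9 to 24.7%). Mir223 gave 1.59% (1.46 to 1.73%) and 1.68% (1.56 to 1.81%), the single detected member whose intervals overlap between the hearts. For each Mir142 count there were 1.29 Mir146 counts in replicate 1 (exact 95% interval 1.23 to 1.36), against 4.86 in replicate 2 (4.59 to 5.15). For each count of the myeloid gene Mir223 there were 4.93 of Mir142 in replicate 1 (4.47 to 5.43), against 1.99 in replicate 2 (1.82 to 2.18).

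**Figure D2:**
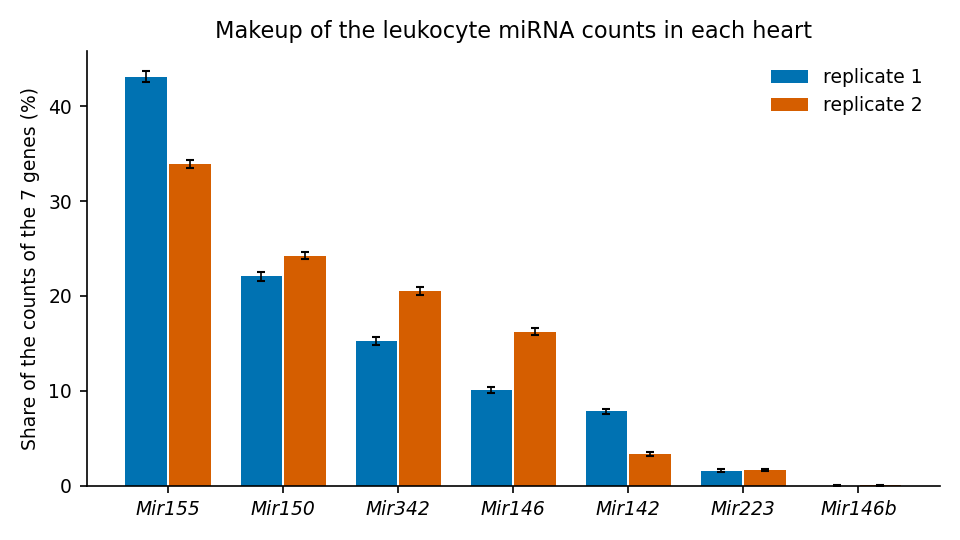
Share of the summed counts of the 7 genes (%) held by each gene in replicates 1 and 2, with exact 95% counting intervals as bars. Mir155 and Mir142 hold larger shares in replicate 1 (43.1% and 7.83%), and Mir342 and Mir146 hold larger shares in replicate 2 (20.5% and 16.3%).

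Between the 2 hearts 4 members were higher in replicate 2, 1 was lower and 1 detected member was not called, by an exact binomial test with Benjamini-Hochberg adjustment over all 356 detected genes. Of those genes 32.9% were called higher and 30.6% lower, and among the 222 genes with at least 100 counts in both hearts, as all 6 detected members had, 45.5% were called higher and 35.6% lower. The test compares the 2 libraries beyond counting error, not conditions, and most well-counted genes pass it, with 63.5% of all detected genes and 81.1% of the well-counted ones called in either direction, so a call does not set a member apart.

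Mir146 was 2.03-fold higher in replicate 2 (exact 95% interval 1.95 to 2.12), with an adjusted p of 2.79e-256 in the exact binomial test. Mir342 was 1.70-fold higher (1.64 to 1.76, adjusted p = 5.87e-199, exact binomial test). Mir150 was 1.39-fold higher (1.35 to 1.43, adjusted p = 1.53e-100, exact binomial test), and Mir223 was 1.33-fold higher (1.19 to 1.50, adjusted p = 1.59e-06, exact binomial test). Mir142 was 1.85-fold higher in replicate 1 (1.74 to 1.98, adjusted p = 5.23e-79, exact binomial test). For Mir155 the ratio of replicate 2 to replicate 1 was 0.994 (0.971 to 1.02, adjusted p = 0.736, exact binomial test). With TMM scaling its log2 ratio was -0.05 and it was called lower (adjusted p = 0.00383), and with the 2 red cell genes left out of the total it was -0.04 and also called lower (adjusted p = 0.0434, exact binomial tests).

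Read against the spread between these libraries, 4 of the 6 detected members differed by less than 1 SD of all genes. That SD of the log2 ratio over the 356 detected genes was 0.86, and Mir146 at 1.02 and Mir142 at -0.89 were the 2 members beyond it, as were 23.6% of detected genes. The same 2 members had coefficients of variation, 48.1% and 42.3%, above the common biological coefficient of variation of 38.6% that edgeR gave over all detected genes. With n = 2 a gene's coefficient follows from its ratio between the hearts, so this restates the ratios and is not separate evidence. A larger absolute log2 ratio than that of Mir146 was found in 59 detected genes, and in 80 for Mir142, 97 for Mir342, 171 for Mir150 and 189 for Mir223. Mir155 was among the steadiest, with 350 of the 356 genes at a larger absolute log2 ratio. The median log2 ratio was 0.45 over the 6 detected members and 0.02 over all detected genes.

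**Figure D3:**
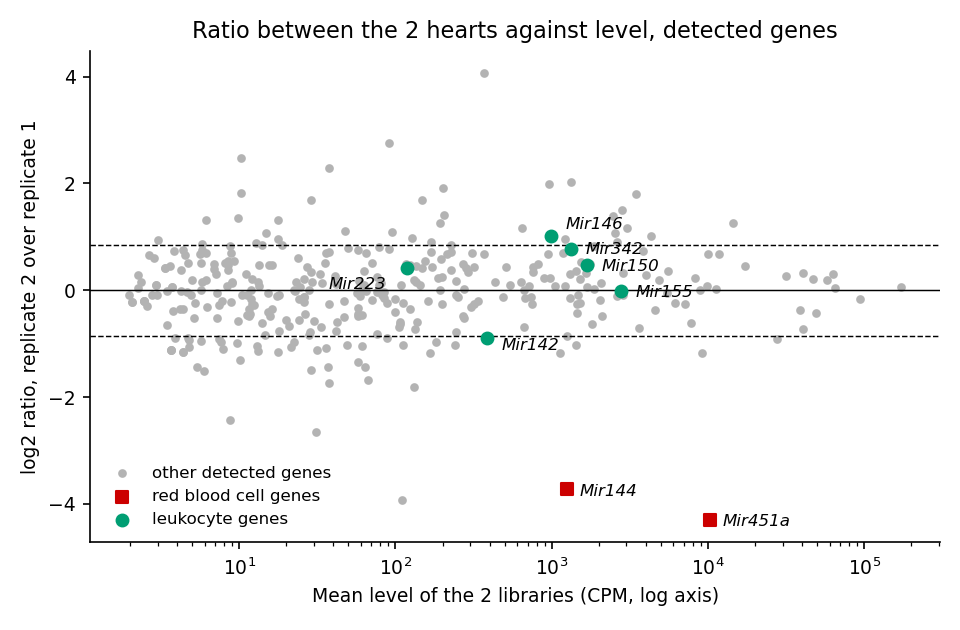
The log2 ratio of replicate 2 over replicate 1 against mean level in CPM (log axis) for the 356 detected genes, with the 6 detected leukocyte genes and the red blood cell genes Mir451a and Mir144 marked and dashed lines at 1 SD (0.86) on each side of 0. Mir146 and Mir142 lie just outside the dashed lines on opposite sides, far from Mir451a and Mir144.

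Blood left in the tissue carries red cells as well as leukocytes, and the red cell genes were set beside the members. Mir451a, a red cell miRNA made without Dicer, was at 19490.5 CPM in replicate 1 against 986 in replicate 2, and its cluster partner Mir144 at 2321 and 175 CPM. Mir486, which is also known from red cells but is not one of these 2 marker genes, ran the other way, at 731 and 1173 CPM in replicates 1 and 2, a log2 ratio of 0.68. How many of the reads placed at several loci belong to Mir486 was not analysed, so its count and its direction are uncertain. Which cells of the heart held Mir486 was not measured either, so its level is not read as a red cell level. The summed level of Mir451a and Mir144 was 18.8-fold higher in replicate 1 (exact 95% interval 18.3 to 19.3), while that of the leukocyte genes was lower there, at 6416 against 8109 CPM. Mir142 was the called member on the same side as the red cell genes, at 1.85-fold. Relative to Mir451a all 6 detected members were higher in replicate 2, from 10.7 times for Mir142 to 40.1 times for Mir146. By Fisher's exact test with adjustment over all detected genes this held for 100% of the 355 other genes too, because Mir451a had the lowest log2 ratio of all, so nothing about the members follows from it. How much of the leukocyte signal came from blood and how much from cells resident in the heart was not tested.

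Markers of the other heart cell types also differed between the libraries. The heart muscle genes Mir208a, Mir208b and Mir499, all detected in this heart tissue, summed to 4486 CPM in replicate 1 and 6512 in replicate 2, with 1 higher in replicate 2, 1 lower and 1 not called. The fibroblast genes Mir214, Mir199a-1 and Mir199a-2 summed to 1876 and 4182 CPM, a 2.23-fold higher level in replicate 2 (exact 95% interval 2.18 to 2.28) that lay almost wholly in Mir214, while Mir199a-1 was at 0 counts in both hearts. Mir199a-1 and Mir199a-2 give the same mature strands, and reads placed at several loci are in no gene's count, so both counts are uncertain and the sum may leave out their reads. The endothelial genes Mir126a and Mir126b summed to 56393 and 69423 CPM, 1.23-fold higher in replicate 2 (1.22 to 1.24). That sum lay almost wholly in Mir126a, as Mir126b was not detected, at 3 counts in each heart. The smooth muscle genes Mir143 and Mir145a summed to 30025 and 36447 CPM, 1.21-fold higher in replicate 2 (1.21 to 1.22). The leukocyte sum, 1.26-fold higher in replicate 2, lay near the endothelial and smooth muscle sums in this ratio. Its relation to these cell types was not tested.

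**Figure D4:**
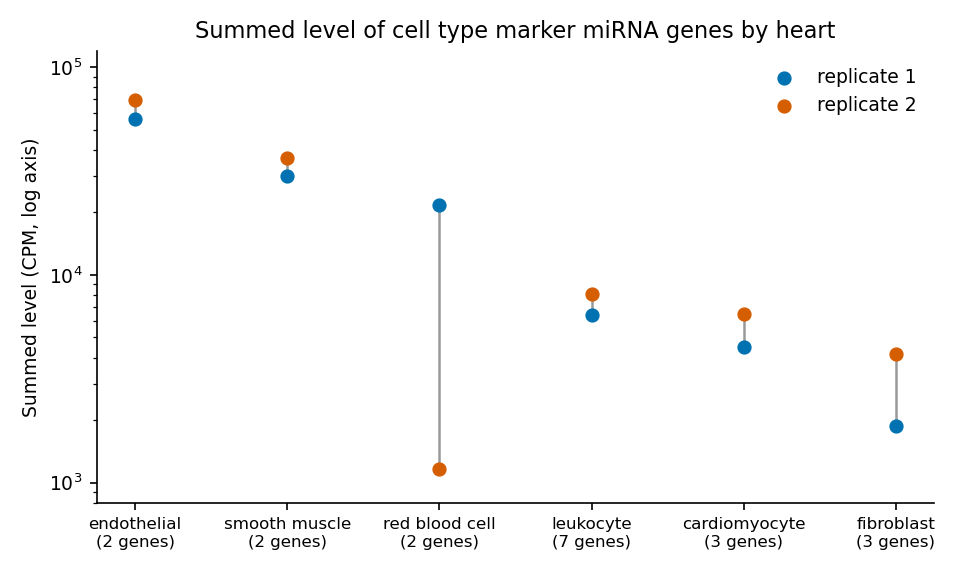
Summed level in CPM (log axis) of the marker miRNA genes of 6 cell types in replicates 1 and 2, joined by a line for each cell type. The red blood cell sum spans an 18.8-fold range, while the leukocyte sum lies at 6416 and 8109 CPM.

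Further miRNA genes known from blood cell development or immune responses were taken as a list of 32 genes, of which 26 were detected. Of these 16 were higher in replicate 2, 7 were lower and 3 were not called, against 32.9% called higher and 30.6% lower over all 356 detected genes and 45.5% and 35.6% among the well-counted ones. The median log2 ratio was 0.33, beside 0.02 over all detected genes, and many genes of the list share mature sequences or clusters with one another.

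The most abundant gene of the list was Mir23a, at 50994 CPM in replicate 1 and 30701 in replicate 2, followed by Mir125a at 7754 and 12350 CPM, Mir21a at 1540 and 5341 CPM and Mir29a at 2530 and 3174 CPM. Mir23a was lower in replicate 2 and the other 3 were higher. Mir23a has a near-identical paralogue, Mir23b, so its count is uncertain. Mir21a, known to be raised in activated macrophages and fibroblasts, was 3.47-fold higher there (exact 95% interval 3.38 to 3.56), the widest ratio among the called genes of the list. In the Mir17 cluster, which promotes growth of lymphocyte precursors, the 4 detected genes were Mir17, Mir18, Mir20a and Mir92-1. All 4 were called lower in replicate 2, as were 30.6% of all detected genes and 35.6% of the well-counted ones. Mir20a was at a log2 ratio of -1.17 and Mir17 at -0.18. As genes of 1 cluster, the 4 are not separate observations. Mir19a and Mir19b-1 of the same cluster were not detected, at 5 and 1 and at 1 and 3 counts. Mir19b-1 and Mir92-1 each have a paralogue elsewhere with the same main mature strand, so their counts are uncertain.

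Among the Mir181 genes, which tune T cell receptor signalling, 4 were higher in replicate 2, 1 was lower and 1 was not called, where 63.5% of all detected genes were called in either direction. Mir181d was the widest of them at a log2 ratio of 0.70, close to the 0.77 of Mir342, and Mir181a-1 was the lower one at -0.23. Mir181a-1 and Mir181a-2 give the same main mature strand, as do Mir181b-1 and Mir181b-2. The counts of both pairs, and with them this tally, are uncertain. Mir132, like Mir155 and Mir146 a gene induced in inflammation, had 1944 and 4656 counts, 2.26-fold higher in replicate 2 (exact 95% interval 2.14 to 2.38), whereas its neighbour Mir212 was not called at 89 and 88 counts. Mir147, induced by Toll-like receptor signalling in macrophages, was not detected, at 13 counts in replicate 1 and 1 in replicate 2. The Mir9 genes, also known from inflammatory induction, were not detected either, with at most 8 counts in a heart. They give the same main mature strand, and reads placed at several loci are in no gene's count. Their low counts are therefore uncertain and do not show absence.

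**Figure D5:**
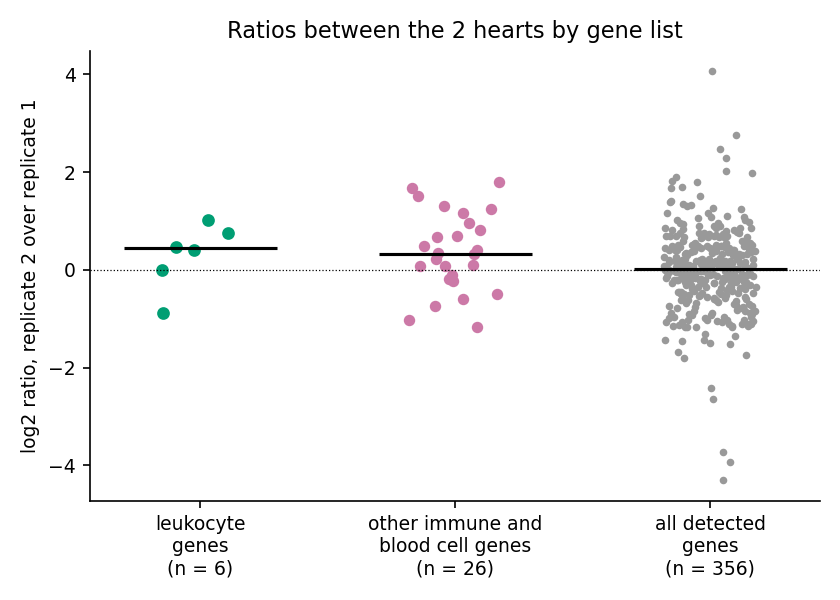
The log2 ratio of replicate 2 over replicate 1 for the 6 detected leukocyte genes, the 26 detected genes of the list of other immune and blood cell miRNAs and all 356 detected genes, with a line at each median and sideways scatter only for legibility. The medians lie at 0.45, 0.33 and 0.02, and the leukocyte genes span -0.89 to 1.02 within the range of all detected genes.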

How the data were processed

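The 2 small RNA libraries of heart tissue were treated as coming from separate animals. The labels give them different animal numbers but 1 donor identifier. The authors deposited raw counts of reads for each miRNA gene, made on mm10 with GENCODE annotation M21 per the text beside the files. Which aligner and counter were used is not given in the sources used here. The tables have unstranded, same-strand and opposite-strand count columns, and 4 tallies (unmapped, several loci, no gene, ambiguous) that were left out of the totals. Reads of CAST alleles were counted against mm10.

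Same-strand counts were used and all 2202 identifiers matched GENCODE M21. CPM are counts per 1000000 assigned counts, and log2 values add 0.5 counts. Libraries were compared by an exact two-sided conditional binomial test over genes with at least 10 counts in both, adjusted by Benjamini-Hochberg at 0.05, because 1 group leaves no contrast for a quasi-likelihood test. A common biological coefficient of variation was estimated by edgeR 4.0.16 with an intercept only, and intervals are exact (Clopper-Pearson) at 95%. The binomial test and the interval of a ratio were tried on simulated counts with counting error only. Fisher's exact test was not tried, and the simulation does not cover the spread between libraries. Pattern likeness is the Euclidean distance in log2 CPM over the 2 libraries. It covers level as well as ratio, and a near gene is easily found among the detected genes, so no shared role follows from it. Comparing levels between genes assumes equal capture of each sequence, which was not tested.

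The members, lists and tests were chosen with earlier results of these data known. All 7 members, their closest gene in pattern and up to 4 genes of each list by mean CPM were named by rule, and others of the immune list after their values were seen. Alternatives changed the strand column, the total, the scaling (TMM, DESeq2 1.42.0 size factors), the count minimum and the pseudocount, and left out each library.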

Additional observations from a re-analysis of the deposited data

Results flagged for a closer look

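Reads appeared in the opposite-strand count column, which was not used for levels or tests. At Mir142b, the gene over Mir142 on the other strand, they held 2478 reads in replicate 1 and 1419 in replicate 2, above the 3 counts that a count of 0 allows. Mir142 itself had 2478 and 1418 counts on its own strand in the same libraries, and Mir142b had 0. The genes overlap on opposite strands, and the counts match those of Mir142 to within 1 read, so they are not read as a further signal.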

How the results depend on the processing

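The 4 members higher in replicate 2 were 4 under every alternative run. The 1 lower member became 2 with TMM scaling and 2 with Mir451a and Mir144 left out of the total, since Mir155 was then called, and 0 with unstranded counts, where Mir142 is at 0. The share of the 7 genes was 0.947% with unstranded counts and 0.267% of all reads, and the median member level was 361 CPM against all reads, because these totals differ. With 1 library left out the share was 0.642 to 0.811% and the median member level 649 to 1318 CPM. The common biological coefficient of variation was 0.432 without a count minimum, against 0.386. The median log2 ratio of all detected genes moved by -0.04 with TMM and -0.02 with DESeq2 size factors. No paired analysis was possible because the labels give 1 group. Depth limits Mir146b, at 3 and 8 counts.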
